A study of Mus musculus with 2 samples.

Results

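Cadherins and protocadherins are surface proteins through which cells recognise and hold neighbours that carry matching molecules, and which of them a cell transcribes is often spoken of as its adhesion code. The code of the embryonic mouse head was read here from 35 genes, those named Cdh or Pcdh with a number alone or with a number and x, among the 32285 genes of the deposited count matrices. They comprised 5 type I classical cadherins, 13 type II classical cadherins, 5 other cadherins, 4 delta1 protocadherins, 5 delta2 protocadherins and 3 other protocadherins. The clustered protocadherins, whose symbols carry a letter, were not members. Of the 35 members, 26 had at least 100 transcript counts (unique molecular identifiers, UMIs) over all cells kept.

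Classical cadherins bind the same or related cadherins on the next cell, and catenins tie their tails to actin. Type I and type II cadherins tend to be used by different tissues, so that cells with unlike cadherins sort apart, and cranial neural crest cells (CNCCs) change cadherins as they leave the neural tube, migrate and settle in the face. The non-clustered protocadherins of the delta1 and delta2 groups have no catenin binding site. Their tails bind other partners, among them the WAVE complex that builds branched actin for several delta2 members.

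The cells came from heads of E11.5 embryos, cut rostral to the otic placode and sorted for the eGFP that Wnt1CRE switches on from the r26 mTmG reporter. Control embryos were wt/flox for Tfap2a and wt/flox for Tfap2b, and mutant embryos were flox/flox for Tfap2a and flox/flox for Tfap2b. All were r26 mTmG/mTmG and Wnt1CRE+, so both groups carried Cre and at least 1 floxed allele of each gene. TFAP2A and TFAP2B are transcription factors of the neural crest, and the comparison asked what their joint loss does to CNCCs of the midface. Cells of 2 embryos were pooled into 1 library per group, so no difference below has a replicate check, no test was possible, and the 95% intervals in brackets cover counting error only. Wnt1CRE also marks part of the brain, so the sorted cells held brain neurons and progenitors beside neural crest.

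The control library had 83542433 UMIs in 6148 barcodes, of which 5625 were kept, and the mutant library 79206144 UMIs in 6063 barcodes, of which 5587 were kept. The libraries shared 5 of the kept barcode sequences. Xist was found in 98.8% of control cells and Y-linked transcripts in 82.0% of mutant cells, so the sex of the embryos and their genotype cannot be told apart in these data. In mesenchyme the targeted genes differed by -0.55 (Tfap2a) and -0.24 (Tfap2b) on the log2 scale. In glia the mutant library had more Tfap2a (78.1 and 119 CPM, 0.61 [0.40 to 0.81]), and Tfap2b differed by -0.27. These glial values include a neuron-like cluster, described below, of 36.0% of control and 4.98% of mutant glia. Its part in them was not tested. These 3′ counts do not tell an intact from a recombined allele.

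Cells were grouped without use of the members into mesenchyme-like cells (3757 control, 2817 mutant), neuron-like cells (877 and 1387), brain progenitor-like cells (636 and 1068) and glia-like cells (261 and 201), called mesenchyme, neurons, progenitors and glia below. All 8 mesenchyme, 8 neuron, 9 progenitor and 8 glia markers were higher in their class than in the other cells. A further 94 control and 114 mutant cells were left without a name and out of the classes. Their leading genes included the red cell genes Alas2, Car2 and Klf1, blood markers summed to 42319 CPM in the control and 1.87 CPM in the mutant cells, and 47.1% were called doublets. The glia need care, since 94 control and 10 mutant cells in them formed a cluster led by Tlx2, Nhlh1 and Nhlh2 in which all 8 neuron markers were higher than in the rest, and glia values are therefore also given without it. A small mesenchyme cluster (41 control and 86 mutant cells) with Sox2, Otx2 and Elavl3 among its leading genes was 71.7% doublets and is likewise left out where stated. The neurons include a mitosis cluster of 154 control and 226 mutant cells led by Ccnb1, Prc1 and Aspm. Of the 5 markers of its best-scoring neuron list, 0 were higher in it. It had the highest Pcdh18 of the neuron clusters (29.0 and 18.7 CPM) and stays in the neuron values, except in an alternative setting. Levels are counts per 1000000 UMIs of the same cells (CPM), which count transcript ends and are not scaled by gene length.

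Promoters of 22 of the 35 members were found in RefSeq tables of GRCm38.p6. Those of Pcdh10, Cdh6 and Pcdh17 are shown because the levels of these genes differed between head regions, and between the libraries in some of them. Each line gives the 250 bases before the transcription start, in the direction of transcription, with capitals where the letters match GCCNNNGGC, a palindromic pattern of the type that TFAP2 proteins bind, so that both strands were searched at once.
Pcdh10, chr3:45378148-45378397, plus strand: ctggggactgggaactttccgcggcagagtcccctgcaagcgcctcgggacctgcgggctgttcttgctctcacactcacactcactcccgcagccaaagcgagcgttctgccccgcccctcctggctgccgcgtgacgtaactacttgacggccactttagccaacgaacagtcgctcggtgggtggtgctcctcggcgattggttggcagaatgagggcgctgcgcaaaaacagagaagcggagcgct
Cdh6, chr15:13173676-13173925, minus strand: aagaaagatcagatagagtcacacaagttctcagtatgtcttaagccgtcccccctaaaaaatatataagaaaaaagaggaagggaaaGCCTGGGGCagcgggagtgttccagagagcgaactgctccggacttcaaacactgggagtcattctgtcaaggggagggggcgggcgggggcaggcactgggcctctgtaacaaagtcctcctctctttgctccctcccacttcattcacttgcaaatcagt
Pcdh17, chr14:84443313-84443562, plus strand: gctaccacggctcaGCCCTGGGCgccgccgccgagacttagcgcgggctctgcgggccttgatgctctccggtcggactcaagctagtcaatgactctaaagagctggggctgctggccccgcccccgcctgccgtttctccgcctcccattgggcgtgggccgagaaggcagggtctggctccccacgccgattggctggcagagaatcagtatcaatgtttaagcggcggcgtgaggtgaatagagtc

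The Cdh6 match GCCTGGGGC began 162 bases and the Pcdh17 match GCCCTGGGC 236 bases before the start, and the Pcdh10 window held none. Of the 25 promoters of the 22 members matched, 4 held the pattern (those of Cdh6, Pcdh17, Cdh18 and Cdh22), beside 13.7% of all 32851 promoters. A match is a run of letters and not a measured binding site.

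The classes differed in their abundant members but also shared some, and Cdh2 and Cdh11 were among the 6 most abundant in every class. The member that led a class was the same in the control and mutant libraries. Mesenchyme was led by Cdh11, the cadherin of loose mesenchyme and bone-forming cells, with 223 CPM in the control and 259 CPM in the mutant library against 20.4 to 30.6 CPM in the other classes. Neurons and progenitors were led by Cdh2 (N-cadherin, the main cadherin of neural tissue) with 178 to 189 CPM. Glia were led by Cdh6, a cadherin of early neural crest, with 184 and 260 CPM, though not in each of their clusters, as shown further on.

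Among the type I cadherins, Cdh2 was found in all classes, with its lowest levels in mesenchyme (53.8 and 68.3 CPM). Cdh4, called R-cadherin, was highest in neurons with 20.5 CPM in the control and 25.4 CPM in the mutant library, 2-fold or more above each other class. Cdh3, or P-cadherin, was at 6.52 and 4.61 CPM in mesenchyme and at 8.06 and 14.4 CPM in glia, and at most 0.617 CPM in neurons and progenitors. Cdh15, the M-cadherin of muscle, reached 4.34 CPM at most among whole classes, in mutant neurons, and 5.34 and 6.23 CPM in the second arch cluster led by Cyp26a1. E-cadherin, the product of Cdh1 and the hallmark of epithelia, had 58 UMIs in all, most of them in progenitors (20 control and 27 mutant UMIs).

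Type II cadherins included members strongly tied to 1 class. After each cell had been thinned to 5000 UMIs, Cdh11 was detected in 62.3% [60.7 to 63.9] of control and 67.8% [66.1 to 69.6] of mutant mesenchyme cells, and in 9.03% and 9.17% of neurons. Cdh19, a marker of Schwann cell precursors, was detected in 12.0% [8.28 to 16.6] of control and 23.5% [17.8 to 30.0] of mutant glia and in 0.0270% and 0.109% of mesenchyme cells. Without thinning the shares of glia were 31.8% and 45.8%, at median depths of 17906 and 15315 UMIs per cell, beside 14568 and 14473 UMIs in mesenchyme. Without the Tlx2 cluster, the thinned shares of glia with Cdh19 were 18.7% [13.1 to 25.4] and 24.2% [18.3 to 30.9], so the intervals overlapped. Mesenchyme markers summed to 1826 and 1813 CPM in mesenchyme and to 29.2 and 19.8 CPM in neurons, and the part of free RNA in the Cdh11 counts outside mesenchyme was not tested.

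Other type II members were lower. Cdh24 was nearly even, from 12.2 to 19.3 CPM over all classes and both libraries. Cdh22, with 11.3 and 8.95 CPM, Cdh8, with 7.44 and 5.17 CPM, and Cdh20, with 3.66 and 3.86 CPM, were highest in progenitors. Cdh7 had 7.69 and 6.33 CPM in progenitors and 5.44 and 6.61 CPM in neurons. Cdh10 was highest in glia at 5.70 and 11.3 CPM, mainly in the cluster led by Pmel and Dct shown further on. Cdh12 was highest in neurons at 1.78 and 3.11 CPM. Cdh13, a cadherin without a tail that is held by a lipid anchor, was a neuronal transcript, with 12.0 CPM in the control and 19.9 CPM in the mutant library.

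Within the delta2 protocadherins, Pcdh18 marked mesenchyme (95.1 and 99.8 CPM) and Pcdh8, the relative of paraxial protocadherin, marked progenitors (72.6 and 72.8 CPM) and neurons (51.2 and 48.1 CPM). Pcdh8 in mesenchyme stood at 0.669 and 1.91 CPM. Pcdh10 was highest in control mesenchyme (29.4 CPM) and in mutant glia (27.8 CPM), and Pcdh19 was highest in mesenchyme (25.5 and 26.9 CPM). Pcdh17 was highest in glia in the control library, at 81.8 CPM, and in neurons in the mutant library, at 52.0 CPM.

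Delta1 members were of intermediate level. Pcdh7 was highest in mesenchyme (21.6 and 20.7 CPM) and Pcdh9 in neurons (34.5 and 31.9 CPM). Pcdh1 was highest in glia, with 15.3 and 28.4 CPM, and the X-linked Pcdh11x was highest in neurons in the control (7.73 CPM) and in mesenchyme in the mutant library (6.25 CPM). Of the remaining protocadherins, Pcdh15, which forms the tip links of hair cells with Cdh23, reached 8.06 CPM in control glia and Pcdh20 reached 12.8 CPM there, and both stood mainly in the Tlx2 cluster, as shown further on.

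A member was counted as led by a class when its CPM there was 2-fold or more that of each other class in both libraries. Mesenchyme led 2 of the 26 members (Cdh11 and Pcdh18), beside 3.21% of all 14007 genes with as many UMIs. Neurons led 4 (Cdh4, Cdh13, Pcdh9 and Cdh12), beside 6.96% of genes. Progenitors led 1 (Cdh20), beside 1.5%, and glia led 4 (Cdh19, Cdh6, Pcdh1 and Pcdh20), beside 1.61%. Pcdh20 left that list without the Tlx2 cluster and Cdh10 joined it. Of the glial Cdh10 UMIs, 27 of 29 in the control and 32 of 37 in the mutant library lay in the cluster led by Pmel and Dct. That cluster also carried mesenchyme genes.

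**Figure D1:**
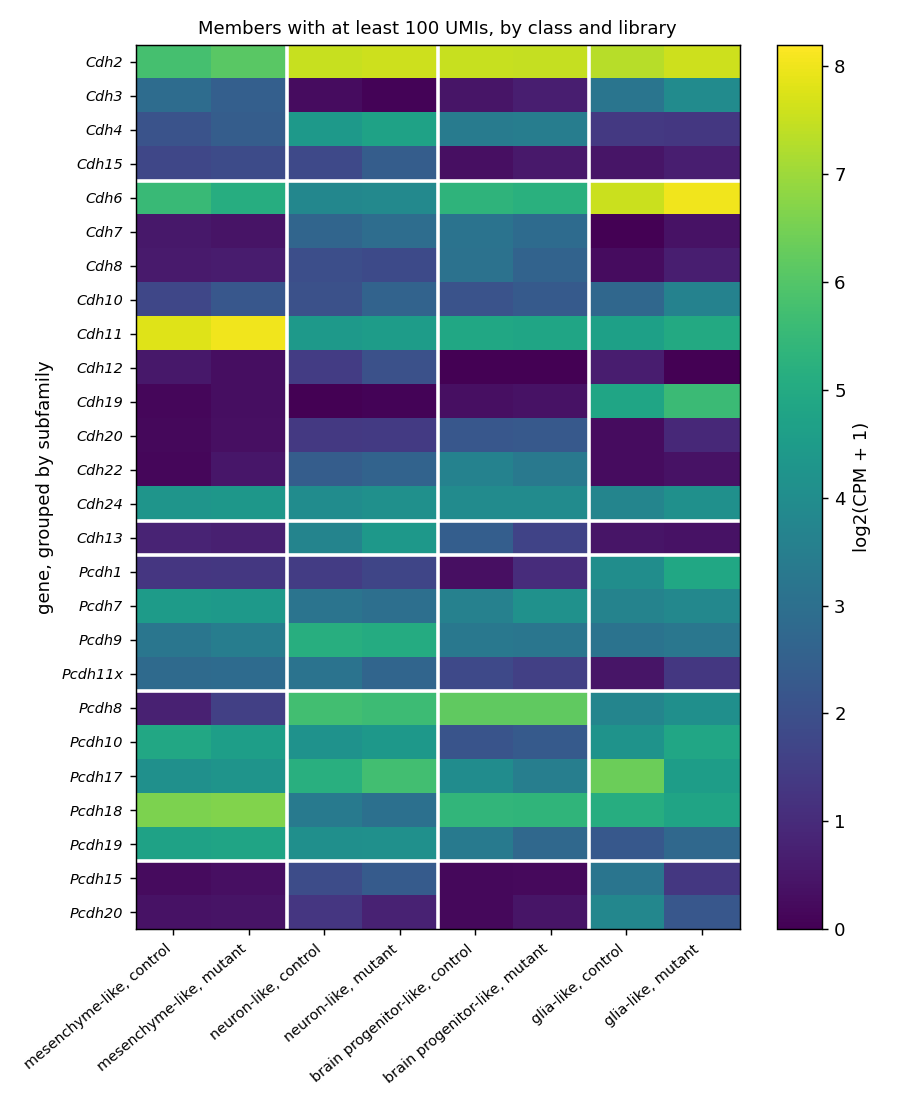
Levels of the 26 members with at least 100 UMIs, grouped by subfamily, in each class and library, coloured by log2(CPM + 1). Cdh11 and Pcdh18 stand out in mesenchyme, Pcdh8 in neurons and progenitors, and Cdh6 and Cdh19 in glia, in both libraries, and Cdh2 is high in every class but mesenchyme.

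The 9 members under 100 UMIs were Cdh9 with 72 UMIs, Cdh1 with 58, Cdh26 with 28, Cdh5 with 20, Cdh18 with 15, Cdh23 and Pcdh12 with 12 each, Cdh16 with 4 and Cdh17 with 2. Several of these belong to tissues that the sort should not hold. Cdh5 (VE-cadherin) and Pcdh12 are endothelial genes, Cdh16 is a kidney gene and Cdh17 an intestinal one. In single thinned cells a mean of 1.64 to 2.26 members was detected per cell and class, and no cell showed more than 7, so the codes described here are of groups of cells. At this depth pairs could not be read as codes of single cells: Cdh11 and Pcdh18 were both detected in 23.1% of control mesenchyme cells, where the product of their single shares was 22.0%.

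Within the mesenchyme the members differed between regions of the face. The regions were named from Lhx6 and other maxillary genes, Hand genes for the mandible, Pax7 or Alx genes for the frontonasal prominence, Hox genes for the second arch, and from periocular and mural marker genes, and each name stands for cells like those of the region. For 14 of the 16 members with 100 UMIs in these 8 clusters, the cluster with the highest level was the same in both libraries, beside 44.2% of all genes. The exceptions were Pcdh10 and Cdh10.

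Mural cells, led by Vtn, had the most Cdh11 (583 CPM [538 to 631] in the control and 505 [467 to 544] in the mutant library) and Pcdh18 (162 and 189 CPM). The lowest Cdh11 levels were in the Pax7 frontonasal cluster of the control (148 CPM) and the mandibular cluster of the mutant library (182 CPM). Pcdh1 was also highest in mural cells, at 7.63 and 15.9 CPM. Cdh5 counts lay almost wholly in this cluster, with 13 control and 4 mutant UMIs, and 6 endothelial markers summed there to 139 and 61.3 CPM, so a few endothelial transcripts were among the mural cells and their part in other values of the cluster was not tested.

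The second arch name fell to 2 clusters with different members. The smaller one, led by Cyp26a1, had the highest Cdh2 (120 and 110 CPM) and Cdh4 (18.4 CPM [12.5 to 26.1] and 14.3 [10.2 to 19.5]) of all regions. The other, led by Dlx3 and Lypd1, had the highest Pcdh19 (46.3 and 47.8 CPM) and, in the control library, the highest Pcdh10 (66.8 CPM [61.1 to 72.8]). In this cluster 4 of 5 second arch markers were higher. Its leading genes held Hoxa2 but also Dlx3, which is on the mandibular list, so it may include other arch cells.

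The maxillary and the Foxl2 frontonasal cluster shared a high Cdh6 level. Of the 694 cells of the Foxl2 cluster, 99.0% had been in the maxillary cluster at the coarser clustering. It was 92.1 CPM [84.3 to 100] in the Foxl2 frontonasal cluster and 71.9 CPM [67.3 to 76.7] in the maxillary cluster of the control library, against 15.7 CPM [13.4 to 18.1] in the mandibular cluster. The maxillary cluster alone combined high Cdh6 with the highest Pcdh7 (44.3 and 41.3 CPM) and Pcdh17 (39.5 and 36.9 CPM) and with high Pcdh10 (61.9 CPM [57.7 to 66.4] and 48.1 [43.8 to 52.6]). Periocular cells had the highest Cdh3 (17.0 and 13.3 CPM) and Pcdh11x (17.3 and 18.9 CPM). In the mandibular cluster Pcdh11x (2.30 CPM in the control library) and Cdh10 (0.442 and 1.05 CPM) were at their lowest in both libraries.

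**Figure D2:**
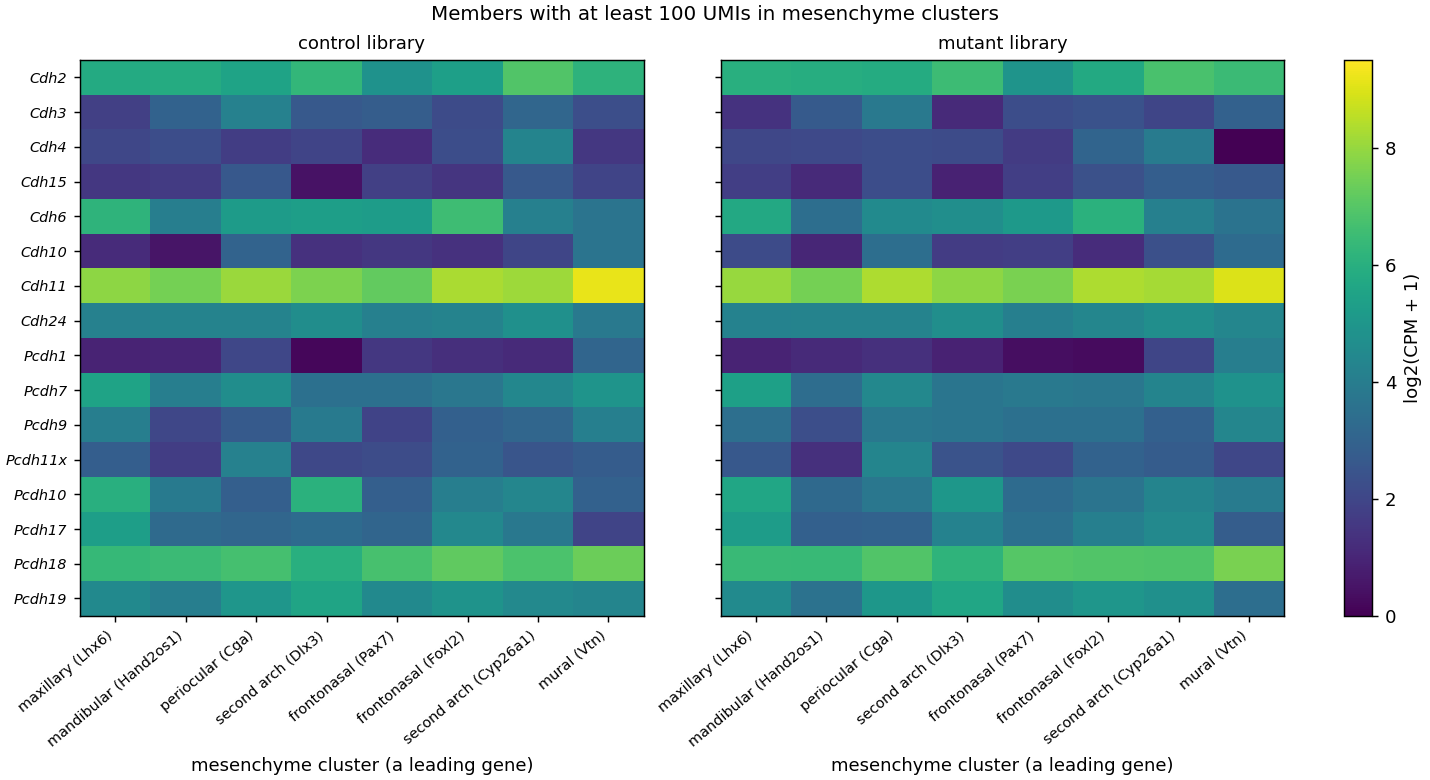
Levels of 16 members, as log2(CPM + 1), in 8 mesenchyme clusters of the control library (left) and the mutant library (right). Most members are brightest in the same cluster on both sides, such as Cdh11 in mural cells and Pcdh7 in the maxillary cluster, and Pcdh10 in the Dlx3 second arch cluster is dimmer on the right (66.8 and 31.7 CPM).

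In the comparison of mutant with control mesenchyme, most members differed little. The median log2 ratio of the 17 members with 100 UMIs was 0.08, beside 0.019 for all genes. The abundant members had 0.22 [0.18 to 0.25] for Cdh11, 0.07 [0.01 to 0.13] for Pcdh18, 0.34 [0.27 to 0.42] for Cdh2, -0.43 [-0.52 to -0.34] for Cdh6, 0.08 [-0.04 to 0.19] for Pcdh19 and -0.36 [-0.47 to -0.24] for Pcdh10. In these class sums Cdh6 and Pcdh10 were lower in the mutant library, and Cdh11, Cdh2 and, by a small amount, Pcdh18 were higher. The sums also carry the cluster shares, which differed between libraries. The Pax7 frontonasal cluster had 563 control and 235 mutant cells, the mandibular 770 and 404, and the Cyp26a1 second arch 154 and 263. Cdh2 was lowest in the Pax7 cluster (28.0 and 29.4 CPM) and highest in the Cyp26a1 cluster (120 and 110 CPM).

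Past 1.5-fold, 2 members were higher, Pcdh8 (0.669 and 1.91 CPM, from 39 and 84 UMIs) and Cdh10 (2.37 and 3.68 CPM, log2 ratio 0.64 [0.30 to 0.98]), beside 3.13% of all genes, and 0 were lower, beside 0.995%. Neuron markers in mesenchyme summed to 58.1 and 100 CPM and progenitor markers to 72.0 and 103 CPM. Without the doublet cluster, Pcdh8 stood at 0.420 and 0.981 CPM (1.23 [0.46 to 2.02]) from 24 and 41 UMIs, which together are under the minimum of 100, Cdh10 stood at 2.31 and 3.71 CPM, and the counts were 1 member higher, beside 2.65% of genes, and 0 lower, beside 1.04%.

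The regional values showed more than the whole class. Of 8 regions with 100 UMIs, Cdh11 had an interval above 0 in 4 and below 0 in 1, with ratios from -0.21 to 0.38. Cdh2 had an interval above 0 in 4 of 8 and below 0 in 0, with ratios from -0.13 to 0.44. Cdh6 had an interval below 0 in 5 of the 6 regions with 100 UMIs, from -0.45 [-0.61 to -0.29] in the maxillary to -0.69 [-0.99 to -0.39] in the periocular cluster. The exception was the Pax7 frontonasal cluster, with 37.2 and 33.7 CPM and -0.14 [-0.45 to 0.16]. Fewer cells of a kind within a cluster and less RNA per cell cannot be told apart in such sums.

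Pcdh10, whose tail recruits the WAVE complex, differed in sign between regions. In the Dlx3 second arch cluster it had 509 UMIs or 66.8 CPM in the control and 216 UMIs or 31.7 CPM [27.6 to 36.2] in the mutant library, which gives -1.08 on the log2 scale [-1.31 to -0.84]. In the maxillary cluster the ratio was -0.37 [-0.53 to -0.20], and in the mandibular cluster, at 13.8 and 8.40 CPM, it was -0.72 [-1.18 to -0.27]. Periocular cells had the opposite sign, with 49 and 77 UMIs, 6.31 and 12.5 CPM and a ratio of 0.99 [0.45 to 1.54]. These differences between regions were not tested, and with the cluster shares held fixed the ratio of the whole mesenchyme was -0.48. At the coarser clustering, the whole second arch cluster had 57.3 and 27.9 CPM.

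Pcdh17, close to even in the whole mesenchyme (16.5 and 18.0 CPM), was higher in the mutant library in the Dlx3 second arch cluster, with 9.05 and 17.7 CPM and a ratio of 0.97 [0.53 to 1.42]. The maxillary cluster, where it was most abundant, had -0.10 [-0.29 to 0.10]. Pcdh9 was higher in the periocular (5.54 and 12.9 CPM, 1.22 [0.66 to 1.79]) and Pax7 frontonasal clusters (2.80 and 10.2 CPM, from 26 and 38 UMIs) and lower in the maxillary cluster (15.6 and 9.98 CPM, -0.64 [-1.01 to -0.29]). Cdh3 in the Dlx3 second arch cluster had 40 and 8 UMIs, 5.25 and 1.17 CPM.

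**Figure D3:**
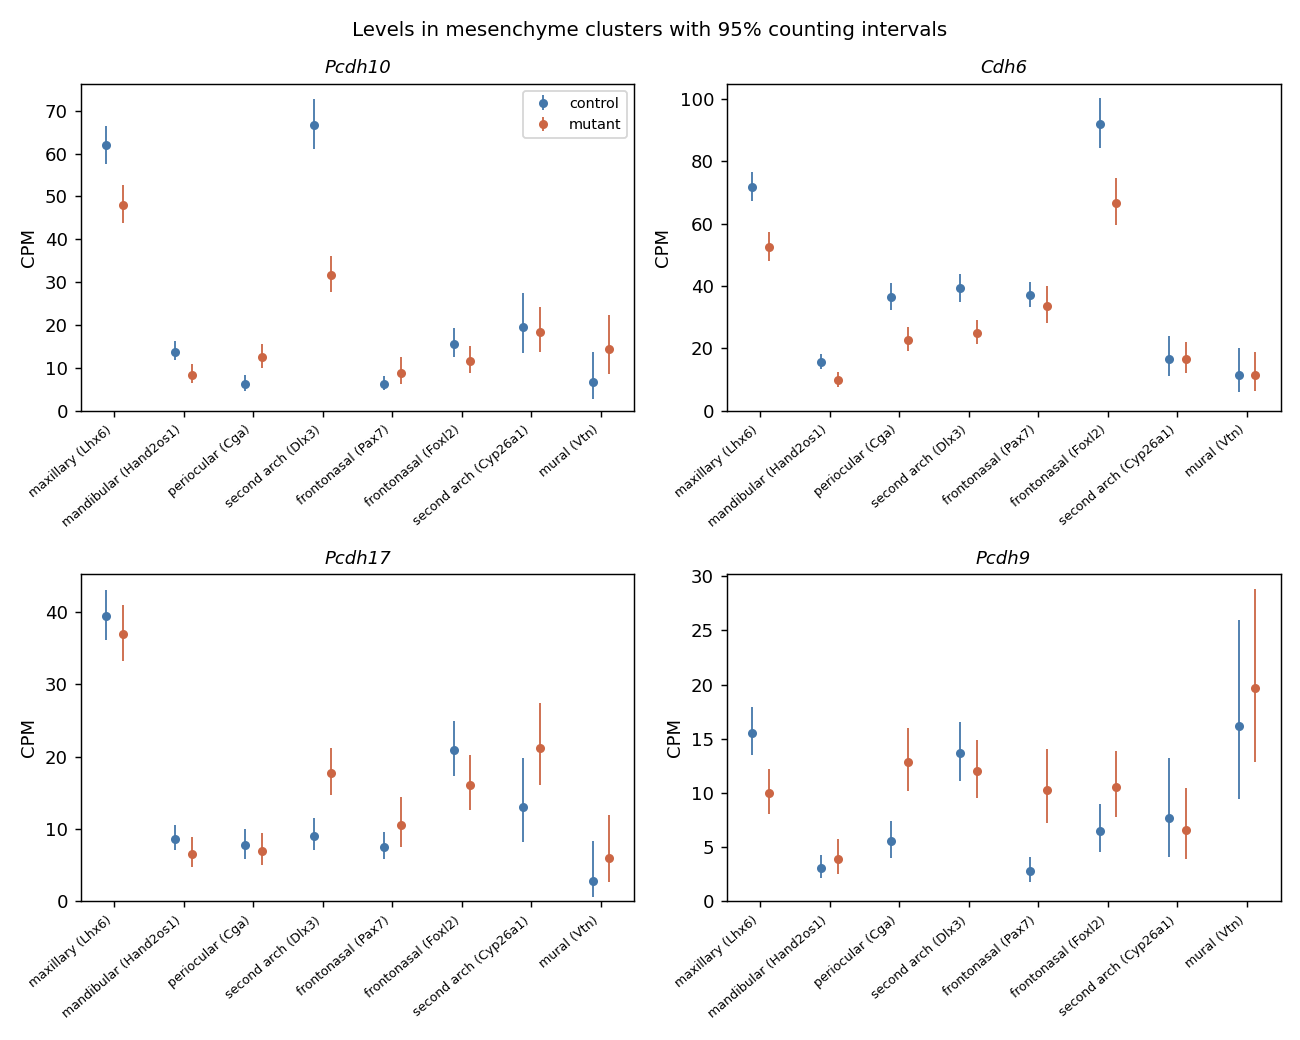
CPM of Pcdh10, Cdh6, Pcdh17 and Pcdh9 in 8 mesenchyme clusters of the control library (blue) and the mutant library (orange), with 95% counting intervals. Pcdh10 in the Dlx3 second arch cluster is at 66.8 and 31.7 CPM with separate intervals, and Cdh6 is lower in the mutant library in the maxillary and Foxl2 frontonasal clusters.

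In neurons, 10 of the 17 members with 100 UMIs were highest in the same cluster in both libraries, a share near the 51% of all genes. Cdh13 was highest in the inhibitory-like cluster led by Six3, Tal1 and Gata3, with 85.9 CPM [62.9 to 115] in the control and 108 [91.8 to 127] in the mutant library. Cdh4 was highest in rhombic lip-like neurons with Atoh1 and Evx1 (39.4 and 48.0 CPM). Pcdh10 was highest in sensory-like neurons with Isl2 and Prph (49.4 and 59.5 CPM), and Pcdh17 in the cluster led by Hmx2 (46.6 and 77.6 CPM). Pcdh9 and Cdh11 shared the cluster led by Foxd2 and Sim1 in the control library, with 127 and 75.3 CPM.

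Between libraries, neurons had 2 members past 1.5-fold higher in the mutant, Cdh13 (12.0 and 19.9 CPM, 0.73 [0.41 to 1.05]) and Cdh10 (3.14 and 5.06 CPM, 0.69 [0.07 to 1.35]), beside 1.57% of genes, and 0 lower, beside 0.898%. The median over 17 members was 0.12, beside 0.010 for all genes. Within the inhibitory-like cluster, which held 49 control and 143 mutant cells, Cdh13 had 0.34 [-0.15 to 0.85], and in the Hmx2 cluster, with 12 and 52 UMIs, 1.44 [0.51 to 2.48]. The share of a Cdh13-rich cluster thus moved with the value of the class, and its part in that value was not tested.

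Among the 6 most abundant members of neurons, Pcdh17 had the largest ratio, 0.56 [0.38 to 0.75], with 35.2 and 52.0 CPM. Its ratio was 0.49 [0.11 to 0.89] in the excitatory-like and 0.74 [0.35 to 1.14] in the Hmx2 cluster. Cdh4 had 0.31 [0.06 to 0.57], and Cdh2, Pcdh8, Pcdh9 and Cdh11 lay between -0.11 and 0.12. Pcdh9 was lower in the mutant Foxd2 cluster, at 74.0 CPM against 127 CPM (-0.78 [-1.17 to -0.39]). Pcdh11x in inhibitory-like neurons had 31 and 19 UMIs, 57.9 and 13.6 CPM, and lies on the X chromosome, for which sex and genotype cannot be told apart.

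Members also differed between progenitor clusters, of which the largest (298 control and 569 mutant cells) was left without a region name. For 9 of the 14 members with 100 UMIs the highest progenitor cluster was the same in both libraries, beside 41.2% of genes. The cluster with Foxa1 and Shh, genes of the ventral midline, had the highest Pcdh8 (152 CPM [129 to 178] and 228 [200 to 259]), Cdh6 (119 and 128 CPM) and Cdh2 (252 and 255 CPM). Isthmic-like cells with Fgf8 and Fgf17 had the highest Cdh22 (28.7 and 22.2 CPM), roof plate and choroid-like cells with Ttr the highest Cdh11 (99.5 and 75.9 CPM). The cluster led by Nkx2-1 had the highest Pcdh17 (94.6 and 55.5 CPM) and Cdh7 (20.6 and 22.0 CPM). Its leading genes also included Gad2 and Isl1, which are on the neuron marker lists, and 7.52% of its cells were called doublets. Of the 6 markers of its best-scoring progenitor list, 0 were higher in it. It may thus hold neuron-like cells, and its part in the progenitor values of Pcdh17 was not tested.

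In progenitors, 1 member was past 1.5-fold higher in the mutant library, Pcdh7 (11.2 and 16.9 CPM, 0.59 [0.23 to 0.96], and 0.58, just under 1.5-fold, without integration or at the finer resolution), beside 1.32% of genes, and 1 was lower, Pcdh19 (9.45 and 5.86 CPM, -0.69 [-1.17 to -0.21]), beside 0.904%. The median over 14 members was -0.05, beside -0.009 for all genes. Pcdh7 was highest in roof plate and choroid-like cells, at 37.5 and 76.7 CPM there (1.03 [0.36 to 1.75]), and these cells numbered 45 and 97. Pcdh17 had -0.54 [-0.90 to -0.17], with 59.7% of its 119 control UMIs in 10 cells, and -0.13 when each cell had equal weight. Pcdh19, which is X-linked, had 23.1 and 7.95 CPM in isthmic-like cells but 15.8 and 38.2 CPM in the Nkx2-1 cluster (1.28 [0.31 to 2.33]). The abundant members Cdh2, Pcdh8, Pcdh18, Cdh6, Cdh11 and Cdh24 lay between -0.14 and 0.00.

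**Figure D4:**
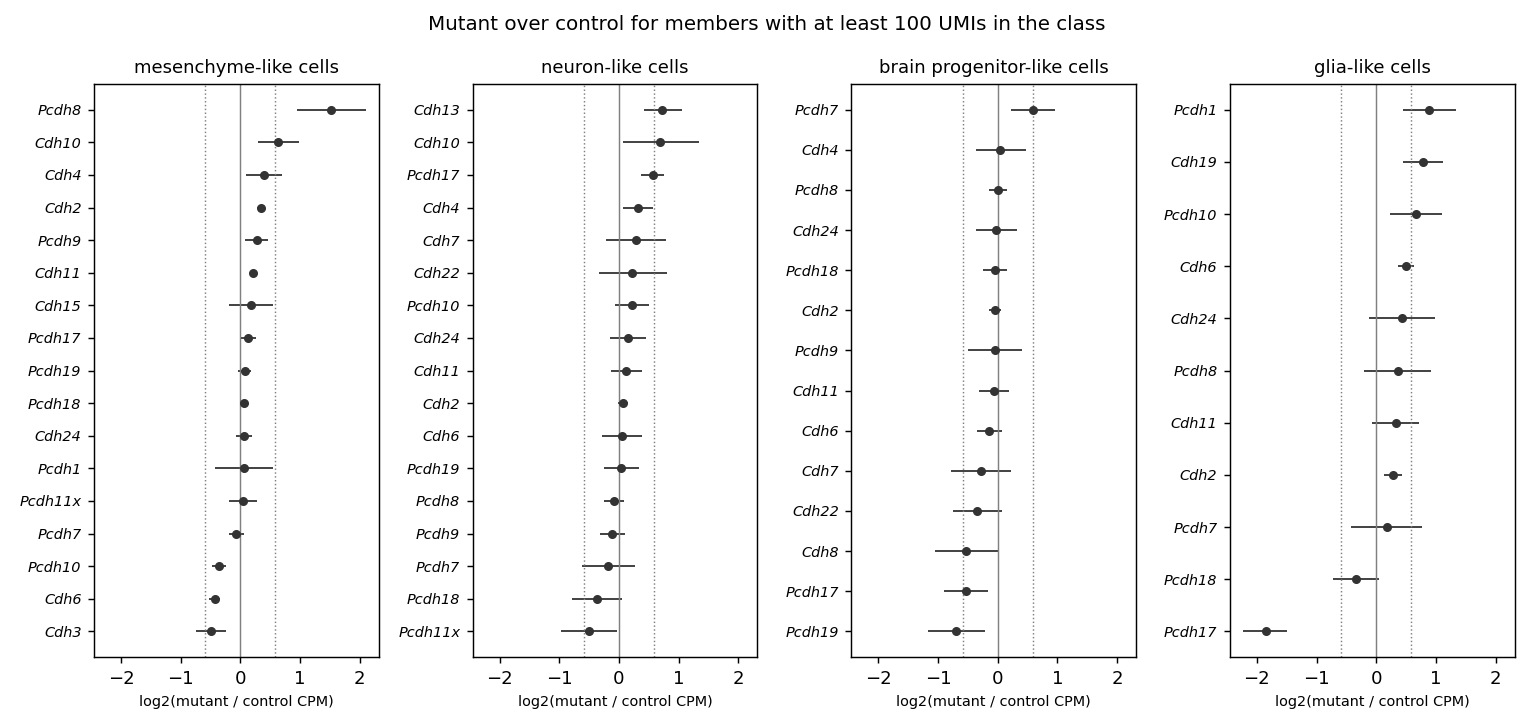
Log2 ratio of mutant over control CPM of members with 100 UMIs in each class, with 95% counting intervals; dotted lines mark 1.5-fold in either direction. Most points lie between the lines, and Pcdh17 in glia, at -1.85, is the lowest.

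Glia held the widest differences, and these depended on which cells were in the class. Over all glia, 3 of 11 members were past 1.5-fold higher in the mutant library, Cdh19 (27.5 and 47.4 CPM), Pcdh10 (17.5 and 27.8 CPM) and Pcdh1 (15.3 and 28.4 CPM), beside 6.28% of genes, and 1 was lower, Pcdh17 (81.8 and 22.6 CPM, -1.85 [-2.23 to -1.50]), beside 4.84%. The median over the 11 was 0.36, beside 0.034 for all genes. Cdh6 had 0.50 [0.36 to 0.63], Cdh2 0.28 [0.12 to 0.43], Pcdh18 -0.34 [-0.73 to 0.04] and Cdh11 0.33 [-0.07 to 0.72]. Neuron markers summed to 2589 CPM in control and 341 CPM in mutant glia.

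Without the Tlx2 cluster, 167 control and 191 mutant cells remained, and neuron markers summed to 170 and 128 CPM. Pcdh17 was then higher in the mutant library, with 7.61 and 16.9 CPM from 25 and 52 UMIs, or 1.15 on the log2 scale [0.43 to 1.90]. By cluster these were 1 and 22 UMIs (Prss56 and Egr2), 10 and 11 (Cnmd and Fabp7) and 14 and 19 (Pmel and Dct). Of the 8 members with 100 UMIs left, 0 were past 1.5-fold higher, beside 3.62% of genes, and 1 was lower, Pcdh18 (42.0 and 26.9 CPM, -0.64 [-1.05 to -0.24]), beside 2.44%. Melanocyte markers in the same cells summed to 125 and 49.0 CPM, and their part in these values was not tested. Cdh6 had 244 and 260 CPM (0.09 [-0.05 to 0.23]), Cdh19 42.3 and 49.6 CPM, Pcdh10 18.0 and 26.6 CPM (0.57 [0.07 to 1.07]) and Pcdh1 21.9 and 29.5 CPM. Pcdh8, under the minimum of 100 with 19 and 51 UMIs, had 5.78 and 16.5 CPM (1.52 [0.73 to 2.36]).

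By cluster, the Tlx2 cells were 36.0% [30.2 to 42.2] of the control glia but 4.98% [2.41 to 8.96] of the mutant glia. They carried 391 of the 416 control Pcdh17 UMIs of the class and all 65 control UMIs of Pcdh20, with 217 CPM of Pcdh17, 36.1 CPM of Pcdh20 and 22.8 CPM of Pcdh15 in the control library. The 10 mutant cells had 117 CPM [73.3 to 177] of Pcdh17 and 47.9 CPM [21.9 to 90.9] of Pcdh20. Cdh19 was at 0.556 CPM in the control cells of this cluster.

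For 4 of the 11 members the glial cluster with the highest level was the same in both libraries, beside 43.7% of genes. The cluster led by Prss56 and Egr2, genes of boundary cap cells, had the most Cdh3 (83.2 and 74.4 CPM) and, in the mutant library, the most Cdh6 (403 CPM). Its Cdh6 ratio was 0.45 [0.11 to 0.80]. The cluster led by Cnmd and Fabp7 had Cdh6 at 104 and 155 CPM (0.58 [0.27 to 0.89]), Pcdh10 at 14.9 and 33.6 CPM (1.18 [0.41 to 1.99]) and Pcdh1 at 19.1 and 35.7 CPM (0.90 [0.21 to 1.63]). Cdh2 there, at 104 and 163 CPM, was no lower than Cdh6. The cluster led by Pmel and Dct, which also carried Prrx1 and other mesenchyme genes and was 10.2% doublets, had Cdh10 at 18.2 and 28.0 CPM and Pcdh10 at 21.5 and 7.01 CPM (-1.62 [-2.95 to -0.47], from 32 and 8 UMIs). Pcdh17 in the Egr2 cluster had 1 control and 22 mutant UMIs, the latter 45.4 CPM [28.5 to 68.8].

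**Figure D5:**
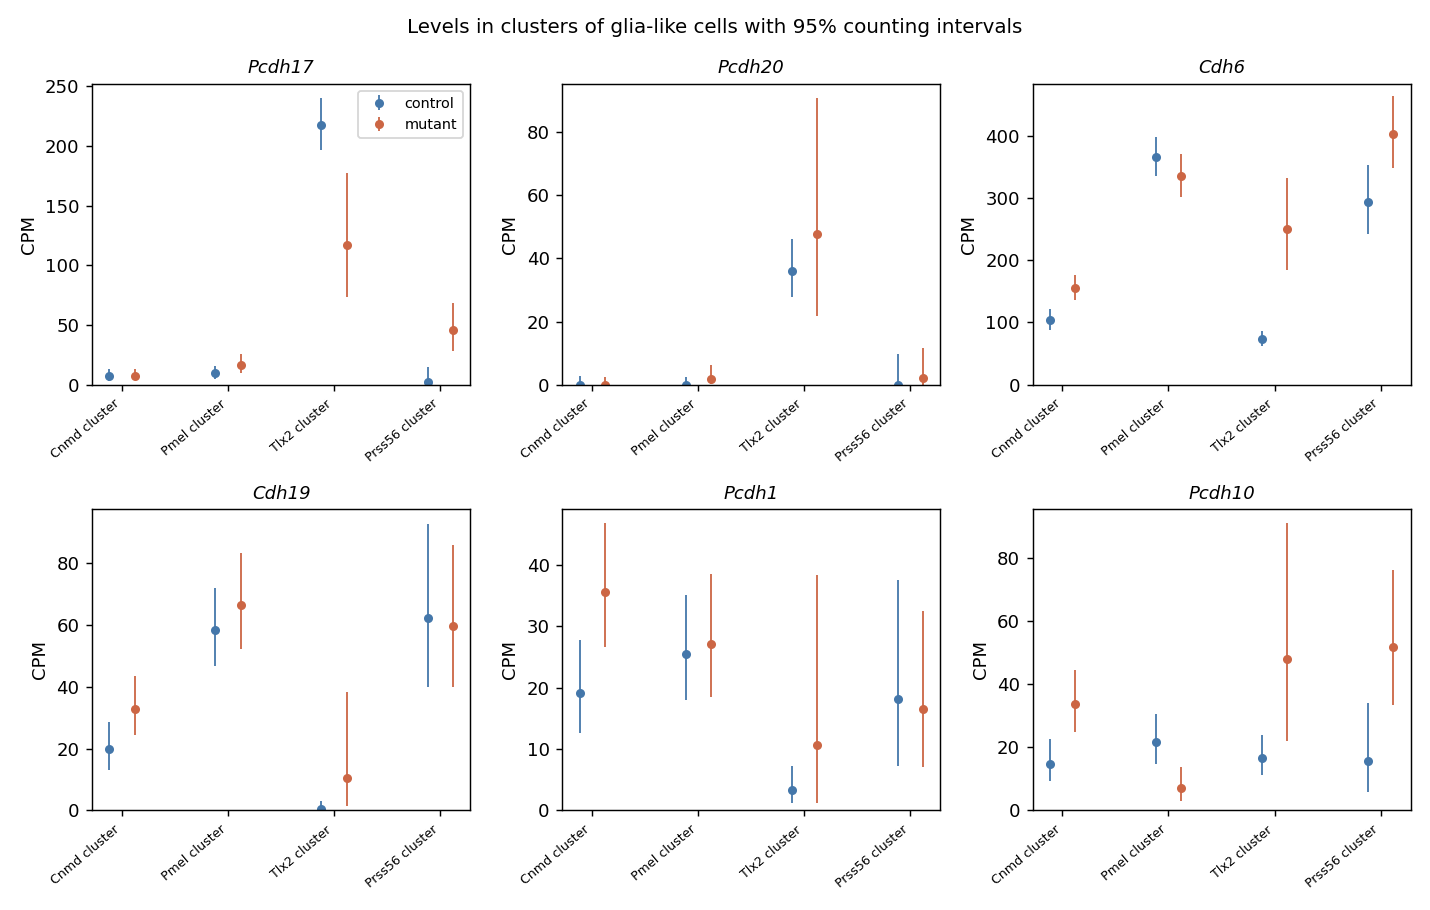
CPM of Pcdh17, Pcdh20, Cdh6, Cdh19, Pcdh1 and Pcdh10 in the 4 clusters of glia-like cells, control (blue) and mutant (orange), with 95% counting intervals. Pcdh17 and Pcdh20 are concentrated in the Tlx2 cluster (217 and 36.1 CPM in the control library), and Cdh19 is at 0.556 CPM in its control cells.

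Among genes that work with the members, few passed 1.5-fold in mesenchyme, where 3.13% of all genes were higher and 0.995% lower. Of the catenins and adaptors in mesenchyme, 1 of 10 measured was past 1.5-fold higher, the neural alpha-catenin Ctnna2 (2.64 and 5.11 CPM), and 0 were lower. Ctnnb1, or beta-catenin, had 415 and 423 CPM. Of the 9 partners of protocadherin tails, 1 was higher, the reelin adaptor Dab1, which binds Pcdh18 (1.54 and 3.82 CPM). Of 18 measured clustered protocadherins, Pcdhb17 and Pcdhb21 were lower and 0 were higher, and of 11 other cadherin superfamily genes 1 was lower, the desmosomal Dsg2 (1.97 and 1.11 CPM). No EMT regulator of 5, protease of 3 or nectin of 3 passed in mesenchyme.

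In neurons, where 1.57% of all genes were higher and 0.898% lower, 0 of 10 catenins and adaptors passed. Lower were 1 of 3 proteases, Furin, which trims cadherin precursors (9.09 and 5.64 CPM), 1 of 10 other cadherin superfamily genes, Ret (8.88 and 4.99 CPM), and 1 of 3 EMT regulators, Twist1 (5.85 and 3.44 CPM). Twist1 is also a mesenchyme class marker. The mesenchyme markers summed to 29.2 and 19.8 CPM in neurons, and the part of free RNA in the Twist1 counts was not tested. In progenitors, beside 1.32% of all genes higher and 0.904% lower, only Furin passed among these lists (13.9 and 9.18 CPM). More passed in glia, where 6.28% of all genes were higher and 4.84% lower. Of 9 catenins and adaptors, Pkp4 and Vcl were higher and Jup lower, and of 4 other cadherin superfamily genes, Fat1 and Clstn1 were higher and Cdhr1 lower. Of 9 partners of protocadherin tails Cyfip2 was lower, and of 3 EMT regulators Zeb1. Their levels ran from Pkp4 with 26.0 and 51.4 CPM to Cdhr1 with 18.9 and 3.36 CPM. These glial counts include the Tlx2 cluster, and its part in them was not tested.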

How the data were processed

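Cells of 1 control and 1 mutant pool were profiled with 10x 3′ libraries. The authors made the deposited whole-number UMI counts with bcl2fastq and Cell Ranger (6.0.0 in the file headers) on mm10, and deposited filtered barcodes without normalization. The strand setting was not given in the sources used here, so overlapping genes are uncertain. PCR copies are counted once through the UMI.

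Barcodes were kept if they had 200 to 7500 genes and no more than 10% of UMIs from mitochondria. Libraries were integrated with Seurat 5.3.0 in R 4.3.3 (2000 variable genes, 30 dimensions) and clustered without the members, the adhesion lists, Tfap2a, Tfap2b and sex-linked marker genes. Classes were clustered again in 20 dimensions. Neurons and progenitors came out as 1 group and were split by this second clustering after it was seen. Mesenchyme regions are from a resolution of 0.4, chosen after seeing that at 0.2 periocular, mural and Pax7 frontonasal cells merged, as did maxillary and Foxl2 cells. Clusters were named from marker lists. Doublets were called by Scrublet (scanpy 1.11.5) and kept, except in an alternative.

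UMIs were summed per library and class or cluster and expressed as CPM. Levels have exact Poisson intervals, log2 ratios exact conditional binomial intervals and shares exact Clopper-Pearson intervals (scipy 1.17.1), all at 95%. A gene was counted in a class if both libraries together had 100 UMIs there, and called past 1.5-fold in CPM. No p-value was computed, since each group had 1 library. Named were all members with 100 UMIs over all cells, members past 1.5-fold in a class and the 6 most abundant in each; other cluster values were chosen after they were seen. The members and lists were chosen with earlier results of these data known. The scripts were tested on simulated data. Promoters came from RefSeq (GRCm38.p6), and gene positions from GENCODE.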

Additional observations from a re-analysis of the deposited data

Results flagged for a closer look

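Each of the following members had log2 ratios of mutant over control of opposite sign in different classes, with counting intervals on opposite sides of 0. With 1 library per group, the differences between classes were not tested.

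Pcdh10 was at 0.67 in glia and -0.36 in mesenchyme, and without the Tlx2 cluster the glial value was 0.57. Its sign also differed inside both classes. By glial cluster the Pcdh10 ratio was 1.18 (Cnmd), 1.73 (Egr2), -1.62 (Pmel) and 1.52 (Tlx2, with 10 mutant cells), and over mesenchyme regions it ran from -1.08 to 0.99. Cdh6 was at 0.50 in glia and -0.43 in mesenchyme, and without the Tlx2 cluster the glial value was 0.09. Within single glial clusters the Cdh6 ratio was 0.58 (Cnmd), 0.45 (Egr2), -0.13 (Pmel) and 1.77 (Tlx2, with 10 mutant cells). Pcdh17 was at 0.56 in neurons, -0.54 in progenitors and -1.85 in glia, and without the Tlx2 cluster the glial value was 1.15. There the Egr2 cluster had 1 and 22 UMIs, the Cnmd cluster 10 and 11 and the Pmel cluster 14 and 19. In control progenitors, 59.7% of the 119 Pcdh17 UMIs lay in 10 cells, 27 of them in 1 cell.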

How the results depend on the processing

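No paired analysis was possible because each group had 1 library. Of 353 values of single members under alternative settings, 328 stayed within the counting interval, 24 moved and 1 reversed, Pcdh17 in glia, to 1.15 without the Tlx2 cluster. Counts of members past 1.5-fold moved most with the count minimum. At 30 UMIs, neurons had 5 higher, progenitors 2 lower, glia 6 higher and 3 lower, and mesenchyme 2 lower. At 1 UMI, mesenchyme had 7 higher and 6 lower, neurons 9 and 4, progenitors 9 and 3, and glia 12 and 6. With cells thinned to 5000 UMIs, mesenchyme had 1 lower, neurons 1 higher, progenitors 0 lower and glia 1 higher. Equal weight per cell gave 1 higher and 1 lower in mesenchyme and 1 lower in neurons. Without called doublets, or without the doublet cluster, mesenchyme had 1 higher, and without the Tlx2 cluster glia had 0 higher. Without integration, or at the finer resolution, progenitors had 0 higher, since Pcdh7 had 0.58. Progenitors led 2 members instead of 1 at both lower count minimums, at the finer resolution, without called doublets and after thinning. The settings without the doublet, Tlx2 or mitosis cluster were chosen after seeing the data. TMM scaling shifted log2 ratios by -0.07 to 0.01. The cause of these moves was not tested, beyond what each setting removes. Members with few UMIs had wide intervals, and a difference between embryos could not be estimated.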
